A study of Homo sapiens with 9 samples.

Results

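The NK and cytotoxic effector genes examined here were 10 named genes of natural killer (NK) cells and killer T cells, taken by symbol: PRF1, GZMA, GZMB, GZMM, NKG7, KLRB1, KLRD1, NCAM1, CTSW and CST7. They were 10 of 58096 gene IDs in the counts, and all 10 had an ID in every library. RNA was sequenced from a single cell line, ALL-SIL, which was established from T-cell acute lymphoblastic leukaemia (T-ALL). Cells had been electroporated with the TLX1 siRNA s46, the TLX1 siRNA s47 or a scrambled siRNA and taken after 24 h, with 3 libraries per siRNA. The labels give the scrambled dose as 400 nM and give no dose for s46 or s47. They do not say that replicates were separate cultures, so the p-values measure the spread between these libraries, which may be technical. TLX1 is a homeobox factor whose ectopic expression occurs in some T-ALL, and the comparison asks what differs when it is reduced.

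NK cells and cytotoxic T cells kill by releasing lytic granules. Perforin opens the target cell's membrane and granzymes, which are serine proteases, enter and start cell death. Lectin-like surface receptors set whether an NK cell is released or held back, and immature T-lineage cells carry little of this programme.

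Libraries held 21134650 to 33393740 sense gene reads. Scrambled replicate 1 stood apart, being the shallowest, and 14.45% of its reads mapped to several places, where other libraries had 6.356% to 7.335%. TLX1 was at 63.7, 87.3 and 78.7 CPM (reads scaled to library depth with TMM factors) with s46 and at 63.5, 73.7 and 75.0 CPM with s47, against 198, 188 and 171 CPM with scrambled siRNA. It fell with both siRNAs together by 1.34 on the log2 scale (SE 0.11, edgeR adjusted p 0.000394). The 12 T-ALL line markers summed to 1930 to 2480 CPM in the TLX1 siRNA libraries and 1920 to 2580 CPM in the scrambled ones, although TRAC, the T-cell receptor alpha constant gene, had 0 to 6 reads per library. The T-ALL marker sum includes TLX1 and does not show single markers. Over both siRNAs 11 of these markers were tested, with log2 fold changes of -1.34 (TLX1) to 0.709, 6 below 0 and 5 above. Only TLX1 had an edgeR adjusted p under 0.05. The 6 NK genes checked outside the members held 22 reads in all 9 libraries, and 3 of the 6 (NCR1, KLRF1 and TYROBP) had none. Their sum was 0 to 0.191 CPM in the TLX1 siRNA libraries and 0.101 to 0.184 CPM in the scrambled ones. B-cell and myeloid markers were low, at 10.4 to 14.8 and 0.0749 to 0.573 CPM in the TLX1 siRNA libraries and at 11.1 to 13.3 and 0.294 to 0.438 CPM in the scrambled ones. The 6 adherent and stromal markers summed to 103 to 126 CPM in the TLX1 siRNA libraries and 87.9 to 97.7 CPM in the scrambled ones, and PECAM1, which leukocytes also express, held 27024 of their 27041 reads (edgeR adjusted p 0.224). DCN, the decorin gene of stromal cells, had no read, and the part of this list in the results was not tested. In bulk samples, fewer cells of a type and less RNA per cell cannot be told apart.

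The members were expressed very unequally. NKG7 held 96.7% of the 35564 sense reads that the 10 members had over all libraries. Per kilobase of exons, the mean level over the 9 libraries was 145 CPM for NKG7, 1.41 for CTSW, 1.02 for GZMM, 0.644 for CST7, 0.145 for PRF1, 0.109 for GZMB, 0.00161 for KLRD1 and 0.000553 for NCAM1. NKG7 thus stood 103-fold above CTSW, the next member, and its rank by this measure was 173 of 19737 protein-coding genes. GZMA and KLRB1 were at 0 in every library. The low-count filter passed 5 of the 10 members, NKG7, CTSW, GZMM, CST7 and PRF1, and the other 5 got no test.

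**Figure D1:**
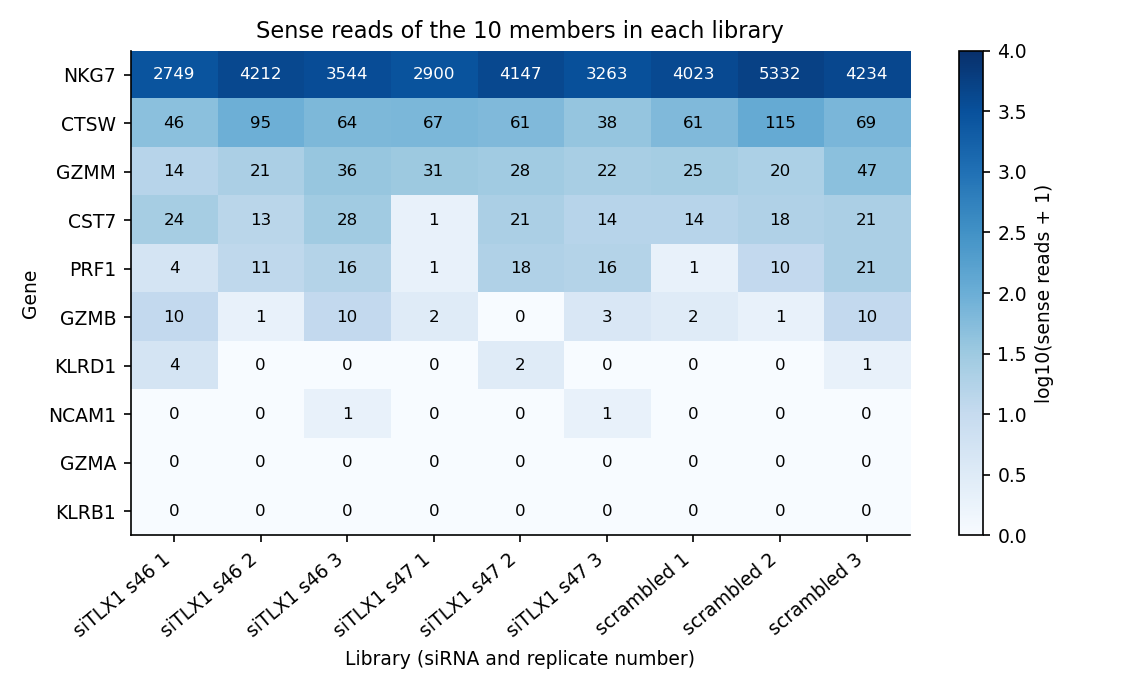
Sense reads of each of the 10 members (vertical axis) in each of the 9 libraries (horizontal axis, siRNA and replicate number), with colour as log10(reads + 1). NKG7 ran from 2749 to 5332 reads, while GZMA and KLRB1 had 0 in every library.

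Promoter sequences from RefSeq (GRCh38.p14, 250 bases before to 50 after the start) were matched for 5 of the 10 members: PRF1, GZMA, GZMB, NKG7 and KLRB1. The 3 printed below, 5′ to 3′ on the gene's own strand, belong to the member with the highest level, a member at a low level and a member with no read. Capitals mark matches on either strand to TGTGGT, the RUNX core, GGAAGT, an ETS core, and TCACAC, a T-box element. TATAAA, the TATA box, was also searched and had no match in these 3. None of these motifs overlap each other, and NKG7 lies at chr19:51372605-51372904, PRF1 at chr10:70602692-70602991, both on the minus strand, and GZMA at chr5:55102396-55102695 on the plus strand.
NKG7: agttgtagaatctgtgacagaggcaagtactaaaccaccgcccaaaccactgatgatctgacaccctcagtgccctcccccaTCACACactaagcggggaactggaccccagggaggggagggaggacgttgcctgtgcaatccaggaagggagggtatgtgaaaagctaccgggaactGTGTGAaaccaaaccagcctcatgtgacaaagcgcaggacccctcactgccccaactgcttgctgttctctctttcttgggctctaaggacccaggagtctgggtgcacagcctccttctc
PRF1: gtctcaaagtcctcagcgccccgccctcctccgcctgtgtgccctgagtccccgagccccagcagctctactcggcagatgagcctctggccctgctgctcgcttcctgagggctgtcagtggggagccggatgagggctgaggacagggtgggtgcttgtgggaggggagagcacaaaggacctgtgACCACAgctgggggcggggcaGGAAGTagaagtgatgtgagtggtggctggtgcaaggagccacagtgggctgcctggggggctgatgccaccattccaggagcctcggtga
GZMA: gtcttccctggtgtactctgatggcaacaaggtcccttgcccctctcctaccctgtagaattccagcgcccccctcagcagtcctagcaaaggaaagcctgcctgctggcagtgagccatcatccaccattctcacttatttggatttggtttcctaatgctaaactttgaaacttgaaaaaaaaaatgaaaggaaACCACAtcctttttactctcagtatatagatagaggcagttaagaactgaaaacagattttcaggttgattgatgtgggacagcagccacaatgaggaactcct

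Counting from the transcription start, the NKG7 promoter held TCACAC at -168 and its reverse complement at -71. The PRF1 promoter held the reverse complement of TGTGGT at -62 and GGAAGT at -41, and the GZMA promoter held the reverse complement of TGTGGT at -54. Of 35116 promoters of this length, 13.1% held TGTGGT, 22.8% GGAAGT, 12% TCACAC and 11.5% TATAAA, so single matches are common.

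NKG7 (ENSG00000105374.9, chr19:51371606-51372715, minus strand, GRCh38 as for all positions here) encodes a membrane protein of cytotoxic granules that is needed for granule release. It was at 105, 146 and 107 CPM with s46 and 109, 132 and 109 CPM with s47, against 180, 180 and 155 CPM with scrambled siRNA. All 6 TLX1 siRNA libraries lay below all 3 scrambled ones, an arrangement found for 3.65% of all genes tested. The means were 119 ± 23.4 CPM with s46 and 116 ± 13.5 CPM with s47, against 172 ± 14.2 CPM with scrambled siRNA (SD, n = 3 each). Over both siRNAs the log2 fold change was -0.54 (SE 0.13, 95% interval -0.81 to -0.27), a ratio of 0.686, with an edgeR adjusted p of 0.0792 that missed the threshold of 0.05. By replicate number, the log2 ratio to scrambled siRNA was -0.78, -0.30 and -0.53 with s46 and -0.72, -0.45 and -0.51 with s47. Given the separation of the libraries, any matching would put these ratios below 0. Each scrambled value enters 2 ratios, and the numbers are not taken as pairing s47 with scrambled.

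The s46 and s47 comparisons share the 3 scrambled libraries. The NKG7 log2 fold change was -0.53 with s46 (SE 0.15, edgeR adjusted p 0.267) and -0.56 with s47 (SE 0.15, edgeR adjusted p 0.2). The s46 libraries differed from the s47 libraries by 0.04 on the log2 scale (95% interval -0.28 to 0.36, edgeR adjusted p 1). Without scrambled replicate 1, the value over both siRNAs was -0.51 (edgeR adjusted p 0.124). With DESeq2 in place of edgeR it passed the threshold (adjusted p 0.0103), and with limma-voom it did not.

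**Figure D2:**
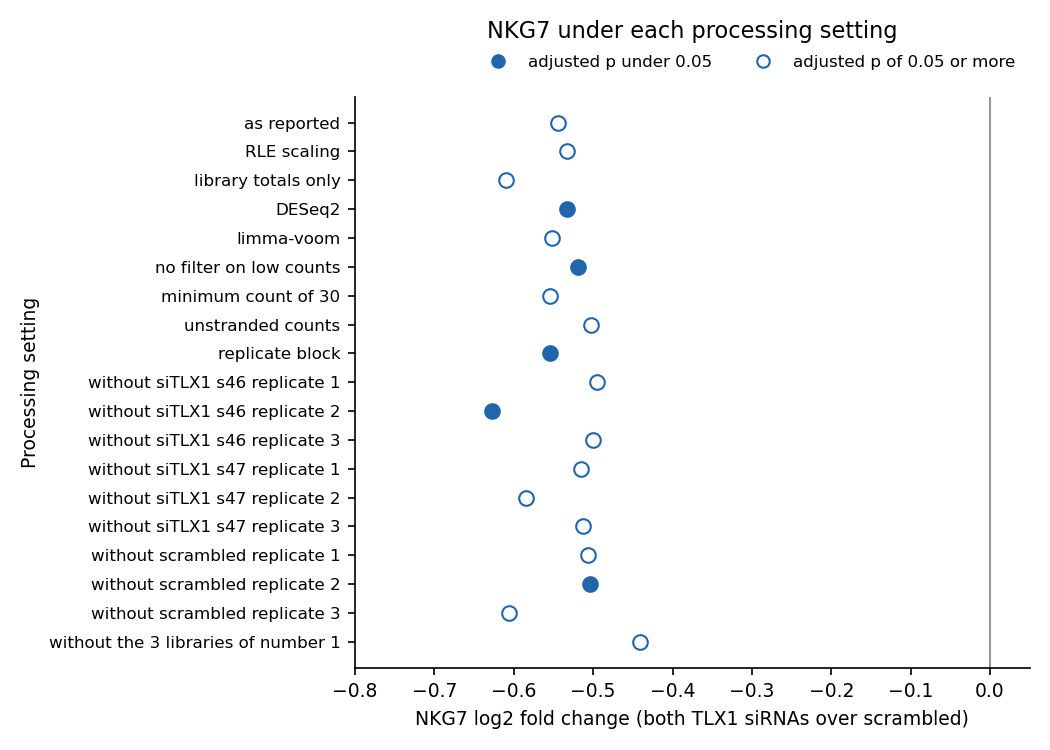
Log2 fold change of NKG7 over both TLX1 siRNAs against scrambled siRNA (horizontal axis) under each processing setting (vertical axis), filled where the adjusted p was under 0.05. Values run from -0.63 to -0.44, all below 0, and 5 of the 19 settings passed the threshold.

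CTSW (ENSG00000172543.7, chr11:65879809-65883741, plus strand) encodes cathepsin W, a cysteine protease of NK cells and CD8 T cells. It was at 1.75, 3.3 and 1.93 CPM with s46 and 2.51, 1.94 and 1.26 CPM with s47, against 2.73, 3.88 and 2.53 CPM with scrambled siRNA. The means were 2.33 ± 0.848 and 1.9 ± 0.623 CPM with s46 and s47, against 3.05 ± 0.725 CPM with scrambled siRNA (SD, n = 3 each). The s46 range overlapped the scrambled one, whereas every s47 library lay below every scrambled library, as for 7.68% of all genes tested. Its log2 fold change over both siRNAs was -0.54 (95% interval -1.14 to 0.07, edgeR adjusted p 0.323), and -0.32 without scrambled replicate 2. The values were -0.39 with s46 (edgeR adjusted p 0.609) and -0.68 with s47 (edgeR adjusted p 0.412). The s46 value was -0.17 without scrambled replicate 2, -0.22 and -0.26 without s46 replicates 1 and 3, and -0.72 without s46 replicate 2, and the s47 value was -0.45 without s47 replicate 3.

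CST7 (ENSG00000077984.5, chr20:24949230-24959928, plus strand) encodes cystatin F, an inhibitor of the cathepsins that activate granzymes. It had 24, 13 and 28 reads with s46 and 1, 21 and 14 reads with s47, against 14, 18 and 21 reads with scrambled siRNA. The groups overlapped, and s47 replicate 1 alone was near 0. Its log2 fold change over both siRNAs was -0.30 (95% interval -1.42 to 0.81, edgeR adjusted p 0.776), and -0.04 without s47 replicate 1. With s46 it was 0.14 (edgeR adjusted p 0.932), and with s47 it was -0.74 (edgeR adjusted p 0.589). For s47 the value was -0.23 without s47 replicate 1.

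Perforin and granzyme transcripts had few reads. PRF1 (ENSG00000180644.6, chr10:70597348-70602775, minus strand) encodes perforin and had 4, 11 and 16 reads with s46 and 1, 18 and 16 reads with s47, against 1, 10 and 21 reads with scrambled siRNA. In each group, the library numbered 1 was the lowest, at 1 to 4 reads, and the other libraries held 10 to 21. Its log2 fold change over both siRNAs was -0.11 with an interval of -1.66 to 1.45 (edgeR adjusted p 0.952). Its direction was not fixed: leaving out 1 library gave -0.58 (scrambled replicate 1) to 0.84 (scrambled replicate 3), and limma-voom gave 0.10. With s46 the value was -0.19 (edgeR adjusted p 0.936) and with s47 -0.02 (edgeR adjusted p 0.993).

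GZMM (ENSG00000197540.7, chr19:544034-549924, plus strand) encodes granzyme M, a granzyme found mainly in NK cells. It had 14, 21 and 36 reads with s46 and 31, 28 and 22 reads with s47, against 25, 20 and 47 reads with scrambled siRNA. The groups overlapped. The log2 fold change over both siRNAs was -0.45 (95% interval -1.22 to 0.31, edgeR adjusted p 0.502), and it was -0.05 without scrambled replicate 3. With s46 the value was -0.57 (edgeR adjusted p 0.558) and with s47 -0.34 (edgeR adjusted p 0.722).

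GZMB (ENSG00000100453.12, chr14:24630954-24634267, minus strand) encodes granzyme B, which cleaves caspases and their targets, and had 10, 1 and 10 reads with s46 and 2, 0 and 3 reads with s47, against 2, 1 and 10 reads with scrambled siRNA. These groups overlapped at counts too low for a test. Its sequence resembles that of GZMH, and reads shared by close copies are listed apart from the genes, so GZMB may be undercounted. GZMA (ENSG00000145649.7, chr5:55102648-55110252, plus strand), the tryptase granzyme, had no sense read, and a count of 0 allows up to 3 reads, or 0.0905 to 0.134 CPM depending on the library (counting error only).

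**Figure D3:**
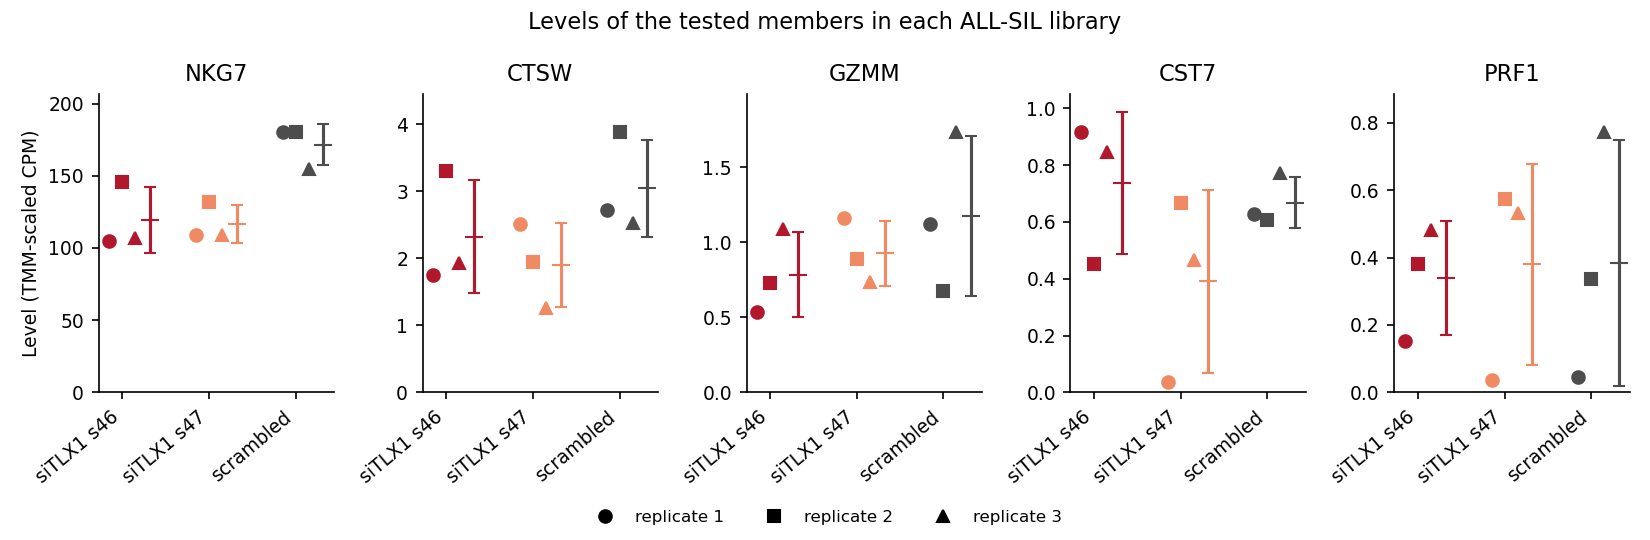
TMM-scaled CPM (vertical axes from 0, scaled per gene) of the 5 members that passed the low-count filter, by siRNA, with 3 libraries per group marked by replicate number and the mean ± SD beside them. All NKG7 points for s46 and s47, at 105 to 146 CPM, lie below the scrambled points at 155 to 180 CPM, while PRF1 and CST7 overlap between groups.

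The receptor genes had almost no reads. KLRD1 (ENSG00000134539.16, chr12:10226058-10329600, plus strand) encodes CD94, the partner of the NKG2 receptors, and had 4, 0 and 0 reads with s46 and 0, 2 and 0 reads with s47, against 0, 0 and 1 reads with scrambled siRNA. NCAM1 (ENSG00000149294.16, chr11:112961247-113278436, plus strand) encodes CD56, the surface marker that defines human NK cells, and had 1 read in s46 replicate 3, 1 read in s47 replicate 3 and none in any scrambled library. KLRB1 (ENSG00000111796.3, chr12:9594551-9607886, minus strand) encodes CD161, an NK and T-cell receptor whose ligand is the product of CLEC2D, and it had no sense read.

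Of the members with a test, 0 of 5 passed the threshold over both siRNAs (edgeR), against 0.566% of all genes, and only NKG7 had an unadjusted p under 0.05, as did 17.8% of all genes. limma-voom called 0 members (background 0.604%), and DESeq2 called NKG7, beside 3.37% of the genes to which it gave an adjusted p. PRF1 and CST7 got no DESeq2 adjusted p. Without scrambled replicate 1 the edgeR count stayed at 0 (background 0.666%) and the median was -0.51. All 5 log2 fold changes were below 0, as for 53.5% of all genes, and their median was -0.45 beside -0.03 over all genes tested. With limma-voom 4 of 5 were below 0, PRF1 being at 0.10. With s46 alone 0 of 5 members passed with edgeR (background 0.174%, 28 genes), and DESeq2 also called 0 members (background 1.41%). NKG7 again had an unadjusted edgeR p under 0.05 (background 11.9%), and the median was -0.39 beside -0.02 over all genes tested. With the replicate number as a block, s46 against scrambled siRNA called 74 genes (0.46%) and no member, with NKG7 at an edgeR adjusted p of 0.078. Over both siRNAs the same block called NKG7, beside 1.38% of all genes. That block treats the numbers as pairing s47 with scrambled, which is not taken here. With s47 alone 0 of 5 passed with edgeR (background 0.33%, 53 genes) or DESeq2 (background 1.37%). NKG7 had an unadjusted edgeR p under 0.05 (background 12.3%), and the median was -0.56 beside -0.03 over all genes tested. Between s46 and s47, 0 of 5 members and 0% of all genes passed; 113 genes (0.703%), none of them a member, had an unadjusted p under 0.05, and DESeq2 also called 0 genes. The largest member difference was 0.88 in CST7 (95% interval -0.43 to 2.19, edgeR adjusted p 1).

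**Figure D4:**
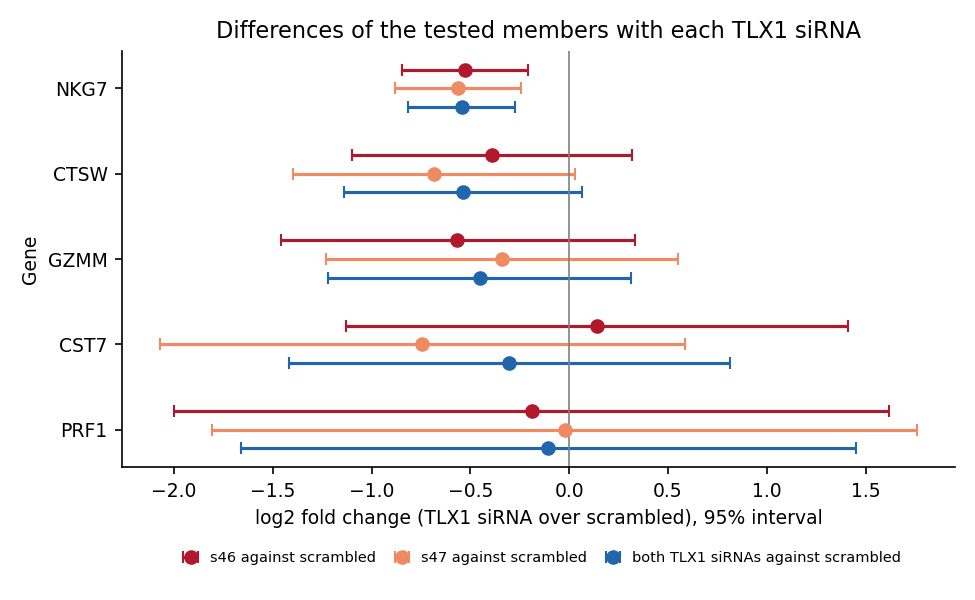
Log2 fold change over scrambled siRNA (horizontal axis) with the 95% interval for s46, s47 and both siRNAs, for the 5 members with a test (vertical axis). The NKG7 intervals lie below 0, from -0.88 to -0.21, and those of the other 4 members include 0.

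None of the genes in 4 further lists of these pathways passed the threshold over both siRNAs with edgeR or limma-voom, and DESeq2 called GATA3 and IL2RB, both among the regulators, beside 3.37% of the 13577 genes with a DESeq2 adjusted p. Of 18 other lytic granule and killing genes, 10 were tested, 0 passed, 1 had an unadjusted p under 0.05 (17.8% of all genes) and 8 were below 0 (53.5% of all genes), with a median log2 fold change of -0.11. The highest of them per kilobase were TNFSF10, the death ligand TRAIL, at 50.3 CPM, SERPINB1, a protease inhibitor, at 32.3 CPM, and VAMP7, a vesicle fusion protein, at 31.9 CPM. Before division by exon length, CTSC was highest of the 18, at 318 CPM, followed by UNC13D at 201 CPM and TNFSF10 at 175 CPM. Granzyme K and Fas ligand (GZMK and FASLG) were at 0 in every library.

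Of 22 other NK receptors and adaptors, 10 were tested, 0 passed and 2 had an unadjusted p under 0.05 (17.8% of all genes), with a median of -0.18. CD96, an inhibitory receptor of NK and T cells, averaged 52.5 CPM per kilobase, CD247, the T-cell receptor zeta chain, 43.9 and CD244, a receptor shared by both cell types, 6.84. The KLRC2, KLRC3 and KLRC4 receptor genes and KLRK1 had no reads; KLRC2 encodes a receptor that pairs with the KLRD1 protein. CLEC2D, the ligand of KLRB1, had 354, 775 and 1061 reads with s46 and 298, 769 and 860 reads with s47, against 266, 1062 and 944 reads with scrambled siRNA. The library numbered 1 was again the lowest in each group, and the groups overlapped.

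Of 20 regulators of cytotoxic and NK genes, 18 were tested, 0 passed, 5 had an unadjusted p under 0.05 (17.8% of all genes) and 12 were below 0 (53.5% of all genes), with a median of -0.15. ETS1, BCL11B and IL2RG were highest per kilobase, at 83.8, 45.7 and 36.9 CPM. ETS1 and BCL11B are T-cell transcription factors, and IL2RG is the common cytokine receptor chain. Of these 18, IL2RB, the receptor chain that NK cells use for IL-15, came nearest the threshold, with 18.2, 16.0 and 13.4 CPM with s46 and 14.8, 17.4 and 14.4 CPM with s47, against 51.0, 20.8 and 24.2 CPM with scrambled siRNA (log2 fold change -1.02, edgeR adjusted p 0.0797). Scrambled replicate 1 held the highest value, and without it the log2 fold change was -0.52 (edgeR adjusted p 0.155). GATA3, a T-cell transcription factor, was at 36.6, 38 and 33.2 CPM with s46 and 37.9, 43.6 and 32.4 CPM with s47, against 101, 41.0 and 45.5 CPM with scrambled siRNA. Scrambled replicate 1 was again the highest, and the log2 fold change was -0.75 (edgeR adjusted p 0.193) with that library and -0.23 (edgeR adjusted p 0.647) without it. IL2RB and GATA3 were named after their values were seen.

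Of 10 effector cytokines and chemokines, LTB, TNF and LTA were tested, 0 passed and 2 had an unadjusted p under 0.05 (17.8% of all genes), with a median of -0.28. These 2 differed in sign, LTA at -0.59 and LTB at 0.36 (edgeR adjusted p 0.242 and 0.208). Per kilobase, the lymphotoxin beta gene LTB averaged 42.4 CPM, the tumour necrosis factor gene TNF 20.8 CPM and the lymphotoxin alpha gene LTA 1.48 CPM. IFNG, the interferon of NK and T cells, and CCL3, CCL4, CCL5 and CSF2 were at 0.

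**Figure D5:**
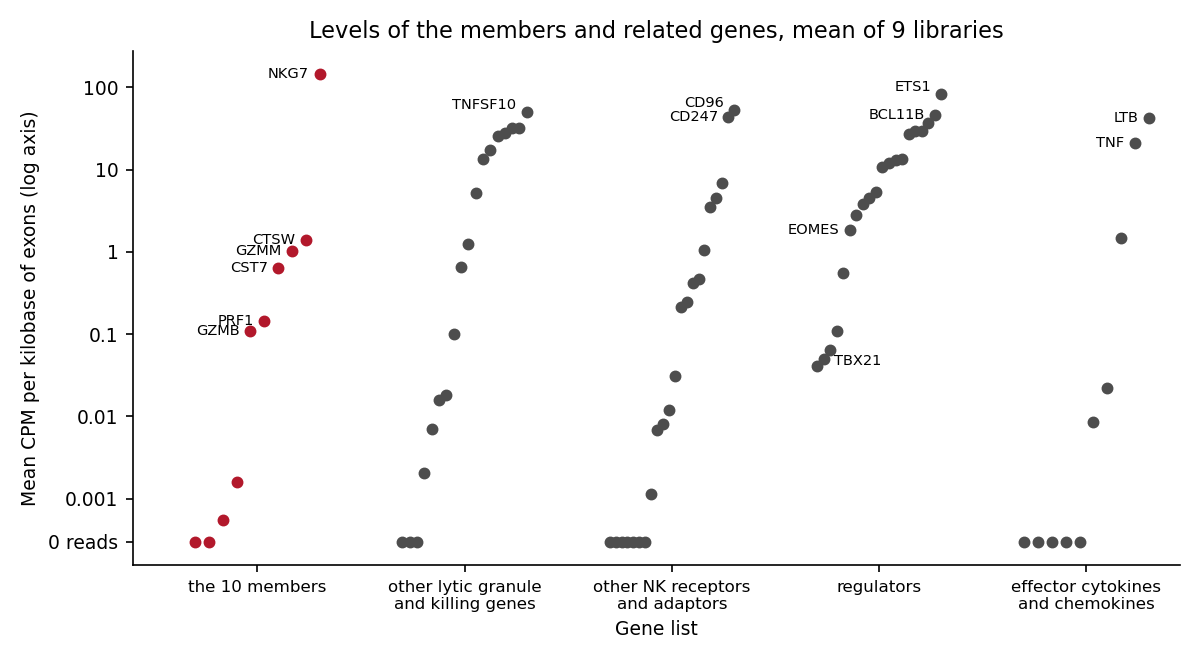
Mean CPM per kilobase of exons over the 9 libraries (vertical log axis, genes without a read placed on the line marked 0 reads) for the 10 members and 4 lists of related genes. By this measure NKG7, at 145, is above every gene of the 4 other lists, of which ETS1 is highest at 83.8. Without division by exon length, NKG7 averaged 136 CPM, below genes such as ETS1 at 599 CPM and CTSC at 318 CPM.

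The 3′ UTRs of the members were searched, on the sense strand, for 2 overlapping words that earlier results of these data had tied to genes raised by the siRNAs. GCAGTAC occurred in 0 of 10 members, against 7.05% of 19829 genes with a 3′ UTR, counting a word in any transcript of a gene. CAGTACA occurred in 1 of 10, KLRD1, against 10.7% of those genes. The KLRD1 site is shown because it was the sole match, with the word in capitals. It starts at base 10628 of the 3′ UTR of an annotated transcript, and KLRD1 had 7 reads over all libraries and no test.
KLRD1: caagtctaCAGTACAgtattatt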

How the data were processed

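Stranded libraries were made from rRNA-depleted total RNA, as the labels' protocols state. Unnormalized gene counts were deposited for each library, on GRCh38 according to the submitters' processing notes. The aligner, the counter and its annotation were not given in the sources used here. The sense-strand column was used. Lines that name no gene (unmapped, 4.518% to 6.703% of reads; multimapping, 6.356% to 14.45%; outside genes, 23.79% to 36.81%; ambiguous, 2.118% to 4.445%) entered neither library sizes nor tests.

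Symbols, coordinates and exon lengths came from GENCODE 29, which matched 57492 of 58096 IDs. Exon length is that of all annotated exons of a gene merged, which lowers the per-kilobase level of genes with long annotated exons. Genes passing filterByExpr (minimum count 10; 16072 genes) were scaled by TMM and tested in edgeR 4.0.16 (robust quasi-likelihood F test, R 4.3.3), all 9 libraries in 1 fit with group as the only term, with Benjamini-Hochberg adjustment over all genes and a threshold of 0.05. DESeq2 1.42.0 and limma-voom 3.58.1 were alternatives, beside other scalings, filters, unstranded counts, a replicate block and leaving out each library. The script was tested on simulated data. Intervals are 95%, and zero counts use a floor of 3 reads.

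The members and lists were chosen with earlier results of these data known. Named genes are TLX1, all members and, of each other list, called genes and the 3 with the highest level per kilobase. Others are named as zeros, as ligands, as high before division by exon length, as nearest the threshold or as called by DESeq2. Deviations from group means of same-numbered libraries correlated at 0.576, 0.53 and 0.527 between s46 and s47, at 0.28, 0.191 and 0.474 between s46 and scrambled, and at 0.147, -0.0637 and 0.434 between s47 and scrambled. The numbers were therefore taken as pairing s46 with s47 and s46 with scrambled. For s47 with scrambled no pairing was taken, because number 2 was at -0.0637. A number shared by all groups would pair these too, and the correlations do not settle it. The main fit used no pairing, which entered only in the replicate block. The labels do not say what a number shares.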

Additional observations from a re-analysis of the deposited data

Results flagged for a closer look

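KLRB1 had no sense read in any library, but the opposite-strand column, which no comparison used, held 271 reads over the 9 libraries. They were 41, 20 and 27 with s46 and 32, 37 and 29 with s47, against 33, 16 and 36 with scrambled siRNA, so the groups overlapped. The annotation places a plus-strand transcript, AC092821.3 (ENSG00000284634.1, chr12:9448295-9658392, GRCh38), across KLRB1, sharing 110 of its exonic bases. That transcript had no ID in the deposited counts, so it could not be analysed, and its part in these reads was not tested.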

How the results depend on the processing

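The number of members past the threshold over both siRNAs was 1, NKG7, with DESeq2 (adjusted p 0.0103), with no filter on low counts (0.00427) and with the replicate block (0.0222, log2 fold change -0.55), and 0 to 1 on leaving out each library, NKG7 passing without s46 replicate 2 (0.0395) or scrambled replicate 2 (0.0421). Of all genes with an adjusted p, these settings called 3.37%, 2.8%, 1.38%, 0.364% and 10.1%, in the order given. For s47 the number of members past the threshold was 1, NKG7 again, with no filter (adjusted p 0.0337), beside 1.38% of all genes. Medians of the tested members stayed within the spread between replicates under all settings run. NKG7 over both siRNAs ranged from -0.63 to -0.50 on leaving out each library and was -0.44 (adjusted p 0.349) without the 3 libraries numbered 1, an alternative chosen after seeing the data.

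No member whose sign turned was called in the comparison where it turned. For NKG7, at 2749 to 5332 reads per library, this was the difference between s46 and s47, which lay near 0. PRF1 over both siRNAs was 0.10 with limma-voom, 0.00497 with the replicate block and -0.58 to 0.84 on leaving out each library. PRF1 with s46 was 0.24 with limma-voom and -0.67 to 0.76, and with s47 it was 0.00953 with unstranded counts, 0.0328 with the block, 0.00747 without the libraries numbered 1 and -0.50 to 0.93. CST7 with s46 was -0.12 with unstranded counts, -0.0714 without the libraries numbered 1 and -0.0321 to 0.396, and GZMM with s47 was -0.62 to 0.063. For s46 against s47, PRF1 was 0.28 with limma-voom and -0.68 to 0.23, CTSW -0.0427 to 0.539, NKG7 -0.14 to 0.13, and GZMM 0.17 without the libraries numbered 1; the cause was not tested in any of these.

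Over all genes, calls for both siRNAs numbered 91, against 458 with DESeq2, 876 with no filter, 222 with the replicate block, 1650 without scrambled replicate 2 and 22 without scrambled replicate 3; for s46 they were 28, against 196, 384 and 74 with the first 3 of these, and for s47 53, against 203, 432 and 125. The block is a hint from the data only for s47 and for both siRNAs, whose numbers are not taken as pairs. PRF1 and CST7 gave no value at a minimum count of 30, and both siRNAs together have no fit of only the groups compared. NKG7 held 34404 of the 35564 member reads, and the other members had far fewer reads behind their values.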
